A study of Mus musculus with 16 samples.

Results

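Genes whose messenger RNA was probed at an upstream and a downstream place were examined here, as the array could then show a change at the tail end of a transcript apart from the rest. The members are array gene names with at least 2 positions on the same chromosome and strand whose outermost starts lay at least 1 kb apart. A position is the genomic site of one probe annotated to an NM_ or ENSMUST transcript, and the probe had to be flagged well above background on all 16 arrays. Of 10262 gene names with such a position, 2600 had more than 1, and 1728 of these met the distance and are the members. The other 872 had their positions closer than 1 kb. The members were selected on the detection flags, so a member had to be detected in every condition. The size of the change with cordycepin was not itself a criterion. A position that cordycepin took down to background, or lifted out of it, was however left out.

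Messenger RNA was measured in RAW264.7 cells, a macrophage-like mouse tumour line, on single-colour Agilent arrays, with 4 biological replicates per condition and 1 array per culture. All cultures were held in medium of low serum beforehand and all received either cordycepin or its DMSO vehicle for 120 min. The DMSO and cordycepin groups had vehicle or 20 µM cordycepin without LPS, while the LPS+DMSO and LPS+cordycepin groups had the same for 60 min and then LPS, a bacterial lipopolysaccharide that activates macrophages, at 1 µg/ml for the last 60 min. Each replicate number was a culture day of its own, and replicates 1 and 2 of every condition lay on one slide and 3 and 4 on the other. The RNA was that of whole cultures, in which fewer cells of a type and less RNA per cell cannot be told apart. All 11 macrophage markers checked were well above background on every array, as were 2 of 4 T cell markers and none of the 4 fibroblast, 4 epithelial or 3 B cell markers. Between 21999 and 30362 spots of 59305 were well above background per array (37.1 to 51.2%), and no spot was saturated.

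The tail end of a messenger RNA is made by cleavage of the precursor downstream of a polyadenylation signal, most often the hexamer AATAAA, followed by addition of a poly(A) tail. Many genes hold several such signals in the last exon, and the choice between them, called alternative polyadenylation, sets the length of the 3′ untranslated region without altering the protein. Signals in introns give shortened transcripts with another last exon. Cordycepin is 3′-deoxyadenosine, an adenosine analogue that cells convert to a triphosphate which lacks the hydroxyl group needed to extend a nucleic acid chain, and it is used as an inhibitor of polyadenylation. The question asked of the members was whether cordycepin changed the signal at the downstream position by the same amount as at the upstream position, with and without LPS.

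Of the 1728 members, 1367 had 2 positions and 361 had 3 or more, with at most 7. The median distance between the outermost positions was 4484 bp, with quartiles of 2179 and 12316 bp. Both outermost positions belonged to the same transcript accession and lay in an uninterrupted stretch of it, with the same distance along the genome as along the transcript, in 394 members. In 875 members they shared an accession but an intron lay between them. The remaining 459 had different accessions at the ends. Positions are those of the array files, on mm9, and the limits of coding and untranslated parts were not used here. Just inside the limit were 1110059G10Rik (1001 bp), Mtch2 (1008 bp) and Mybl2 (1019 bp), with differences between the ends of -0.02, -0.06 and -1.02 log2 with LPS. Just outside were Rnf121 and Ybx1 (both 999 bp) and Smad4 (998 bp), with 0.13, -0.05 and 0.03. A few distances were very long (18007258 bp in Rps2, 666785 bp in Exoc4 and 640301 bp in Wwox), and none of these 3 genes passed the threshold in any comparison. The distances rest on the array's own gene names and coordinates, which were not checked against a genome.

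The runs of 30 bases that follow show what the arrays read at the ends of 3 genes with a large difference, Txndc9, Ier5 and Btg1, and, for Cstf1 upstream, Caprin1 upstream and Gsk3b downstream, places where the array sequence itself held AATAAA, given in capitals, with Caprin1 downstream, which held none, for comparison. They are in the sense of the transcript, 5′ to 3′, as deposited in the array files, with mm9 coordinates of the bases printed.
Txndc9 upstream (chr1:38044570-38044599, minus strand): cagagccaaaagaaatttgggacaaacttc
Txndc9 downstream (chr1:38040742-38040771, minus strand): acactttcacgcatgtggtaaactcataca
Ier5 upstream (chr1:156945795-156945824, minus strand): acgtggcaaacctcatcagcatcttcgggt
Ier5 downstream (chr1:156943560-156943589, minus strand): gcaagggagctgttacttttctactccatc
Btg1 upstream (chr10:96082071-96082100, plus strand): gagtctttcccacaaaccaccatctatttt
Btg1 downstream (chr10:96085358-96085387, plus strand): gcagctttaaatcagtcggatttatgaata
Cstf1 upstream (chr2:172206550-172206579, plus strand): cattgtcctggtAATAAAgctcagatctac
Caprin1 upstream (chr2:103605820-103605849, minus strand): gatggcaaaacaAATAAAaacatgtttcta
Caprin1 downstream (chr2:103603212-103603241, minus strand): gggcagttttcttccatgtttagtttttgt
Gsk3b downstream (chr16:38246124-38246153, plus strand): ggtcatgtgactgctgcttcAATAAAgaca

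Cordycepin raised the downstream end relative to the upstream end in many more members than the reverse. For each gene and array the upstream log2 signal less the downstream log2 signal was taken, a ratio within the array, and the change in this ratio was tested with limma over all 2600 genes with several positions. A negative change means that the downstream end gained on the upstream end, and a gene passed at a Benjamini-Hochberg adjusted p under 0.05 and at least 2-fold. In LPS+cordycepin against LPS+DMSO, the downstream end gained in 112 members (6.48%) and the upstream end in 10 (0.579%). Over all 2600 genes the shares were 4.65% and 0.5%. In cordycepin against DMSO, the downstream end gained in 81 members (4.69%) and the upstream end in 5 (0.289%), against 3.5% and 0.346% over all 2600 genes. Among the 872 genes with closer positions, the downstream end gained in 9 with LPS (1.03%) and 10 without (1.15%). Whether members and closer genes differ was not tested.

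Over all members the ends moved little against each other. The median difference over all 1728 members was -0.06 log2 with LPS (quartiles -0.27 and 0.08) and 0.04 without (-0.15 and 0.19). Among the 112 genes whose downstream end gained with LPS the median size was 1.42 log2, and the direction was the same on all 4 culture days in 111. Both values largely follow from the threshold, which used this same difference, and are no separate support. The median over all members was not stable between days, at -0.17, 0.11, -0.13 and -0.13 with LPS for replicates 1 to 4. In the 394 members with both positions in an uninterrupted stretch the median with LPS was -0.28, -0.18, -0.29 and -0.28, below 0 on each day. Without LPS the median of these members was 0.002, -0.17, -0.08 and -0.20, and so not below 0 in replicate 1.

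Of the positions that passed on their own in these genes, most were downstream positions that rose, and changes at the upstream position were mostly below 0. In a separate limma fit of all 21591 probes detected in at least 1 condition, 65 of the 112 genes had only the downstream position raised, 10 only the upstream position lowered, 3 both of these and 1 both positions raised, while in 33 neither position passed alone. Their median change was 1.16 log2 at the downstream position, above 0 in 110 of 112, and -0.23 at the upstream position, below 0 in 91. Without LPS, the 81 genes had median changes of 1.20 and -0.18, and 47 had only the downstream position raised. Among all 1728 members, the downstream position was raised in 77 and lowered in 15 with LPS. The upstream position was raised in 8 and lowered in 20. The shares raised and lowered over all 21591 probes were 7.12% and 1.61%, each larger than the share at either end of the members. Without LPS, 60 members had the downstream position raised and 13 lowered, and 3 had the upstream position raised and 18 lowered. Over all probes the shares were 5.53% and 1.09%, again each larger.

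**Figure D1:**
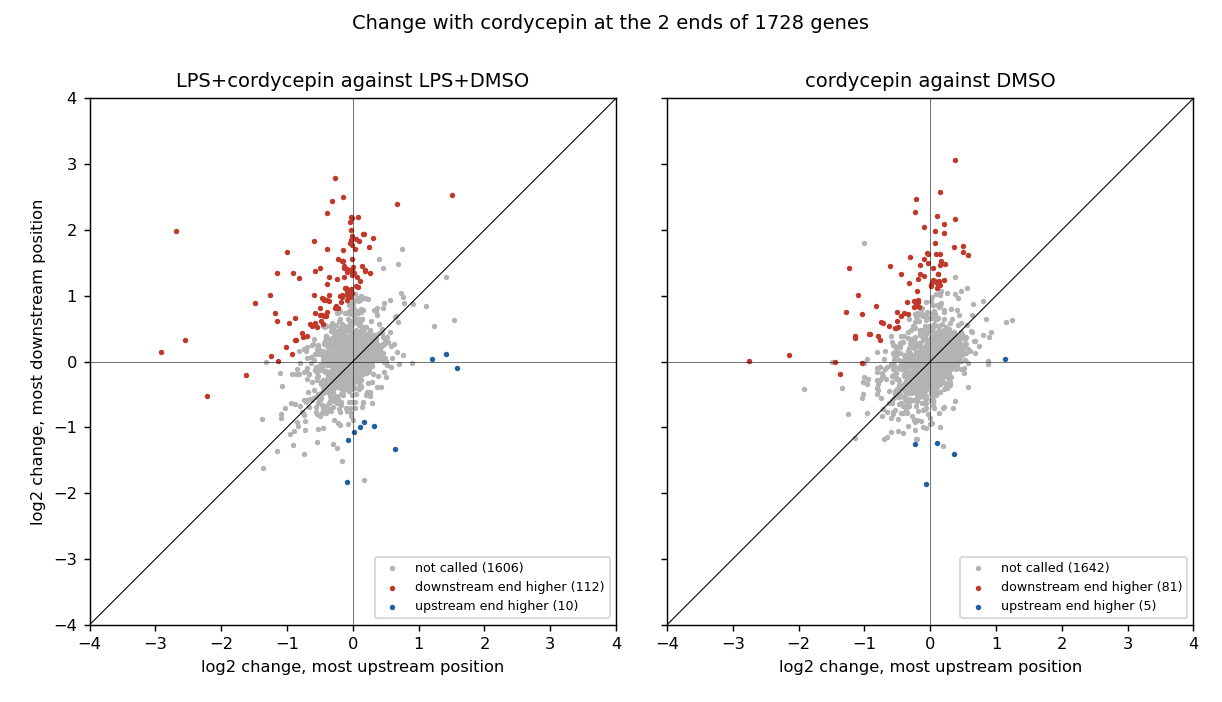
Log2 change with cordycepin at the most upstream position (horizontal axis) and the most downstream position (vertical axis) of each of the 1728 members, with LPS (left) and without (right). Each point is a gene, red where the downstream end gained (112 and 81 genes) and blue where the upstream end gained (10 and 5), and the red points lie above the diagonal mostly along the vertical axis.

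Txndc9, a thioredoxin domain protein, shows the pattern most plainly. Its downstream signal was 7.56, 7.26, 7.61 and 7.5 log2 on the 4 LPS+DMSO arrays and 10.08, 10.30, 10.33 and 10.41 on the LPS+cordycepin arrays. Without LPS it was 7.16, 7.34, 7.10 and 7.42 in DMSO and 9.65, 9.70, 9.72 and 9.82 in cordycepin. All cordycepin arrays were thus more than 2 log2 units above all vehicle arrays. At the upstream position, 3828 bp away, LPS+DMSO gave 10.31 to 10.71 and LPS+cordycepin 10.08 to 10.57, so the groups overlapped. The change was 2.79 log2 downstream and -0.27 upstream with LPS, a difference of -3.07 ± 0.13 (SE, n = 4; limma adjusted p = 2.01e-10), and without LPS the difference was -2.68 (limma adjusted p = 1.17e-09).

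Nufip2, which encodes an RNA-binding partner of the fragile X protein, and Ier5, an immediate early response gene, had the same form. The downstream signal of Nufip2 was 9.27, 9.47, 9.54 and 9.33 log2 in LPS+DMSO and 11.81, 11.98, 11.75 and 11.85 in LPS+cordycepin, without overlap. Its upstream signal was 10.16, 10.06, 10.33 and 10.33 against 9.69, 10.38, 10.16 and 9.38, which overlapped. The difference between the ends was -2.76 with LPS (limma adjusted p = 1.89e-08) and -2.11 without (limma adjusted p = 4.40e-07).

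In Ier5, LPS alone moved the upstream signal from a mean of 10.24 to 11.99 log2 and the downstream signal from 8.47 to 9.31. With cordycepin added to LPS the downstream signal was 11.66, 11.47, 11.49 and 11.65 against 9.29, 9.36, 9.23 and 9.36 without it, and the upstream signal 11.40, 12.07, 11.60 and 11.30 against 12.16, 11.94, 11.92 and 11.94. The downstream groups stood clear of each other and the upstream groups overlapped. The difference was -2.65 ± 0.17 (SE, n = 4; limma adjusted p = 1.91e-08) with LPS and -1.67 (limma adjusted p = 3.98e-06) without. Ier5 was the only member among 27 immediate early genes listed.

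Btg1, an antiproliferative protein that binds the deadenylase complex, had the largest fitted difference, and 1 array determined its size. Upstream, LPS+cordycepin gave 13.50, 13.40, 5.69 and 13.50 log2 against 14.05, 14.36, 14.21 and 14.22 in LPS+DMSO. Downstream the values were 9.74, 10.29, 10.29 and 10.18 against 8.11, 8.13, 8.17 and 8.15. All the cordycepin arrays lay on one side at both ends, and the upstream value of replicate 3 lay far below the others. The difference was -4.67 ± 1.28 (SE, n = 4; limma adjusted p = 0.0217) with all arrays and -2.67 (limma adjusted p = 1.90e-06) without that array. With that array kept, the call with LPS was lost when only the compared groups were fitted (limma adjusted p = 0.134), within slide 2, and without replicate 1, 2 or 4 or LPS+DMSO replicate 2 (limma adjusted p = 0.0514 to 0.0652). Without LPS it was -2.79, which did not pass (limma adjusted p = 0.233) until the same array was left out of the common fit (limma adjusted p = 6.86e-07).

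Fastk, a Fas-activated kinase, had a difference of -2.66 with LPS and -2.5 without, with a rise of 2.51 and 2.27 downstream. Rbm33, an RNA-binding protein, moved at both ends with LPS, by 1.67 downstream and -1.0 upstream (difference -2.67), and by 0.35 and -1.14 without LPS (difference -1.5). The difference of Fam160a2 was -2.42 with LPS and -2.66 without, and that of Abcg4, a sterol transporter, was -1.72 and -2.69. Each of these passed in both comparisons (largest limma adjusted p = 1.47e-05, for Abcg4 with LPS).

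In Klhl25 and Gramd1b the upstream position changed by -2.91 and -2.55 log2, and the downstream position changed by 0.14 and 0.33. Klhl25 encodes an adaptor of a Cullin ubiquitin ligase. Its upstream signal was 9.73, 9.67, 9.88 and 9.82 log2 in LPS+DMSO and 6.65, 6.96, 7.0 and 6.84 in LPS+cordycepin, with no overlap, while the downstream signal was 10.94 to 11.21 and 11.10 to 11.37. The difference was -3.06 ± 0.15 (SE, n = 4; limma adjusted p = 1.40e-09). Its positions carry different accessions 6708 bp apart, and only one of the accessions was in the RefSeq table used, so that both belong to the same gene rests on the array's name. Gramd1b, a carrier of cholesterol between membranes, had 12.95, 12.87, 12.67 and 12.80 upstream in LPS+DMSO and 10.49, 10.29, 10.05 and 10.24 in LPS+cordycepin (difference -2.88; limma adjusted p = 5.39e-12). Of the 112 genes, 39 had different accessions at the ends, and both accessions were in that table for 17 of the 39.

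**Figure D2:**
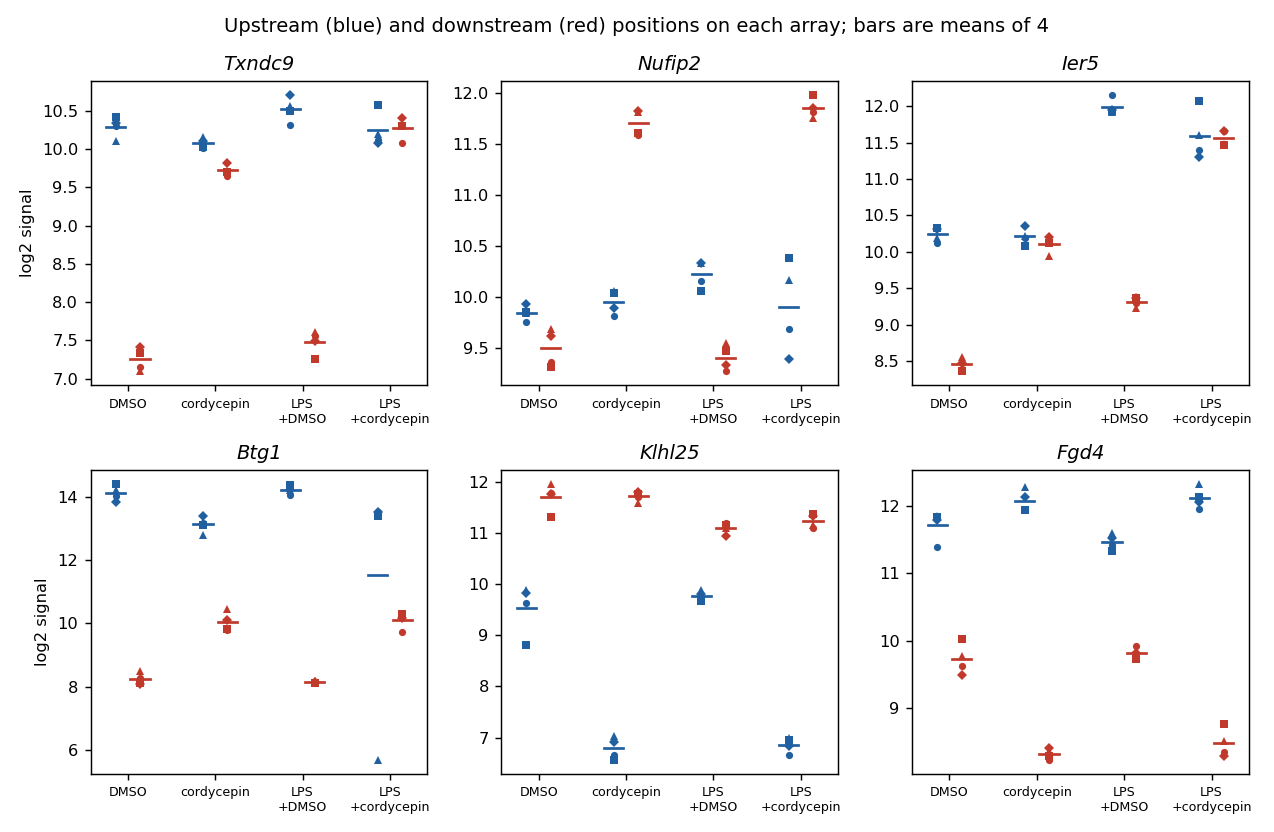
Log2 signal of the upstream (blue) and downstream (red) position on each array for 6 members, with 4 arrays per condition (circle, square, triangle and diamond for replicates 1 to 4) and bars at the means. The downstream points of Txndc9, Nufip2, Ier5 and Btg1 rise with cordycepin, the upstream points of Klhl25 and the downstream points of Fgd4 fall, and 1 upstream triangle of Btg1 lies at 5.69. Levels of a blue and a red position cannot be compared with each other, as they come from different probes.

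Some further genes that passed are given for what they are known to do, a choice made once their values had been seen. Mcl1, an anti-apoptotic protein with a short-lived messenger, differed by -1.70 with LPS and -1.44 without. Its upstream position fell by 2.22 and its downstream position by 0.52 with LPS. Rgs2, a regulator of G protein signalling, moved by -1.49 upstream and 0.89 downstream (difference -2.37). For Gsk3b, a kinase of many pathways, the change was 0.10 upstream and 1.83 downstream, and for Ube2n, a ubiquitin-conjugating enzyme of inflammatory signalling, -0.02 and 1.91. The stress granule protein Tia1 had 0.17 and 1.94, the translation factor subunit Eif2s1 0.00 and 1.44, and the cold-inducible RNA-binding protein Rbm3 -0.14 and 1.42. These 7 genes passed in both comparisons (largest limma adjusted p = 6.78e-05). Caprin1, a partner of Tia1 in stress granules, had 0.04 and 1.14 with LPS and passed there only, with -0.81 without LPS under the 2-fold minimum, and it missed that minimum with normexp background correction (-0.74), quantile normalization (-0.88), on the authors' values (-0.68), with detection in 1 condition (-0.83) and without LPS+cordycepin replicate 2, by a narrow margin.

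The upstream end gained in few members. Fgd4, an exchange factor for Cdc42, had a downstream signal of 9.92, 9.73, 9.78 and 9.81 log2 in LPS+DMSO and 8.35, 8.77, 8.50 and 8.28 in LPS+cordycepin, with no overlap, while upstream 11.42, 11.34, 11.60 and 11.53 became 11.95, 12.13, 12.33 and 12.06. The difference was 1.98 ± 0.13 (SE, n = 4; limma adjusted p = 3.06e-08) with LPS and 1.76 without. Zfp628, a zinc finger protein, changed by -1.84 downstream and -0.08 upstream with LPS (difference 1.75), and by -1.87 and -0.06 without (1.80). Rbfox2, a splicing regulator, also passed in both comparisons, with 1.09 and 1.34.

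In 1700047I17Rik2, now Fam177a2, the upstream position rose by 1.58 and the downstream position, near the top of the scale at 17.52 to 18.12 log2 with LPS, changed by -0.10. Echdc3, a homologue of enoyl-CoA hydratases, rose by 1.42 upstream and had 0.11 downstream. The other members of this group with LPS were Adat1, an adenosine deaminase of transfer RNA, Arl14ep, Ccrn4l (now Noct, nocturnin), Ankrd33b and Rhox8, and without LPS Gabarap, an autophagy protein, and Atxn7l1. Over the 10 genes with LPS the median change was -0.98 downstream and 0.24 upstream. Adat1, Arl14ep, Atxn7l1, Gabarap and Rbfox2 had differences of 1.01 to 1.34 in the comparisons in which they passed and each fell under the 2-fold minimum or past an adjusted p of 0.05 under at least 1 alternative. So did Echdc3 on the authors' values (0.91) and Ccrn4l within slide 1 (0.97), both with LPS. Alternatives for Ankrd33b and Rhox8 are not given here.

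The share of genes whose downstream end gained was larger where the positions lay in an uninterrupted stretch, and within such stretches it was larger at longer distances. It was 57 of 394 (14.5%) in an uninterrupted stretch with LPS and 43 (10.9%) without. With an intron in between it was 16 of 875 (1.83%) and 11 (1.26%), and with different accessions 39 of 459 (8.50%) and 27 (5.88%). Within an uninterrupted stretch the share with LPS was 0 of 400 for positions under 250 bp apart, 1 of 146 (0.685%) from 250 to 500 bp and 6 of 159 (3.77%) from 500 to 1000 bp. Beyond this limit it was 11 of 108 (10.2%) up to 1500 bp, 10 of 101 (9.90%) up to 2000 bp, 14 of 106 (13.2%) up to 3000 bp, 10 of 40 (25%) up to 4000 bp and 12 of 39 (30.8%) above. The shares without LPS were lower in each of these 5 classes, at 8.33, 6.93, 10.4, 17.5 and 23.1%. Over all members, with introns and different accessions included, the share with LPS did not run this way. It was 7.05% from 1 to 2 kb, 10.0% to 4 kb, 9.06% to 8 kb, 3.16% to 16 kb and 1.92% above. These shares are descriptions, as no test of the classes was made. Across the 394 genes Spearman's rho between the distance and the difference was -0.15 with LPS and -0.12 without, and genes are not independent replicates.

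**Figure D3:**
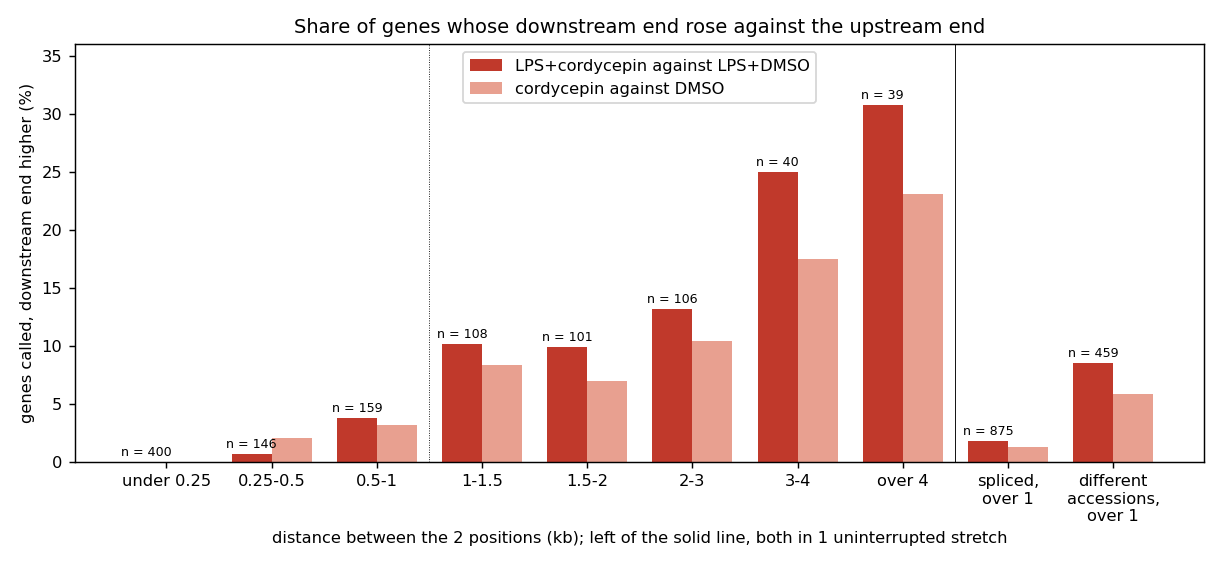
Share of genes (percent, vertical axis) whose downstream end gained on the upstream end, by the distance between the positions in kb, with LPS (dark) and without (light), and n the number of genes in each class. Left of the solid line the positions lie in an uninterrupted stretch, and classes left of the dotted line are closer than 1 kb and are not members. The share with LPS runs from 0 of 400 genes at the shortest distances to 12 of 39 at the longest, and is 1.83% where an intron lies in between.

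The level of the signal moved with the share as well. With LPS the downstream end gained in 84 of 754 members (11.1%) whose downstream position was at or below the median log2 signal of 10.5, and in 28 of 974 (2.87%) with a brighter one. Where both positions were above the median it gained in 18 of 417 (4.32%), and among these in 11 of the 83 (13.3%) in an uninterrupted stretch. The part of signal level in the results was not tested.

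Members with more than 2 positions show where along the gene the change appeared. Of the 112 genes, 32 had 3 or more positions, and they held 40 positions between the outermost ones. The change with cordycepin at 35 of these was nearer to that of the upstream end and at 5 nearer to that of the downstream end. This count takes no account of where the positions lay. Some were close to an end, as in Flad1 (at 5 of 2141 bp) and Abcg4 (at 6560 of 6576 bp). Nufip2 changed by -0.32, then by -0.18 at 17713 bp and by 2.45 at 24830 bp. Txndc9 had -0.27 at the first position, -0.40 at 291 bp and 2.79 at 3828 bp. In both genes only the last position rose. The further profiles were chosen after their values were seen. Bcat1, the cytosolic branched-chain aminotransferase, had -0.03, -0.03 at 4475 bp and 2.19 at 10495 bp. Hnrnpa3, a nuclear RNA-binding protein, had 6 positions between -0.47 and 0.25 and the last, at 6791 bp, with 1.45. The first and last positions of Hnrnpa3 carry different accessions, joined by the array's name. The difference between its ends did not pass with LPS within slide 2 (-1.91, limma adjusted p = 0.107). Without LPS it was lost in 17 of 20 fits with a replicate or array left out. Anapc15, a subunit of the anaphase-promoting complex, had 4 positions between -0.05 and -0.02 and 1.39 at the last, 3240 bp from the first. The first and last positions of Anapc15 carry accessions other than that of the 3 in between, joined by the array's name, and Anapc15 missed the 2-fold minimum for the difference between its ends with normexp background correction (-0.95). Gatad2a differed, with 0.18, 0.68 and 1.38 in turn. Among the 32 genes, 16 increased at every step, with a step of any size counted. They included genes in which only the last position rose, such as Nufip2 and Eny2 (-0.09, -0.01 and 1.40).

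**Figure D4:**
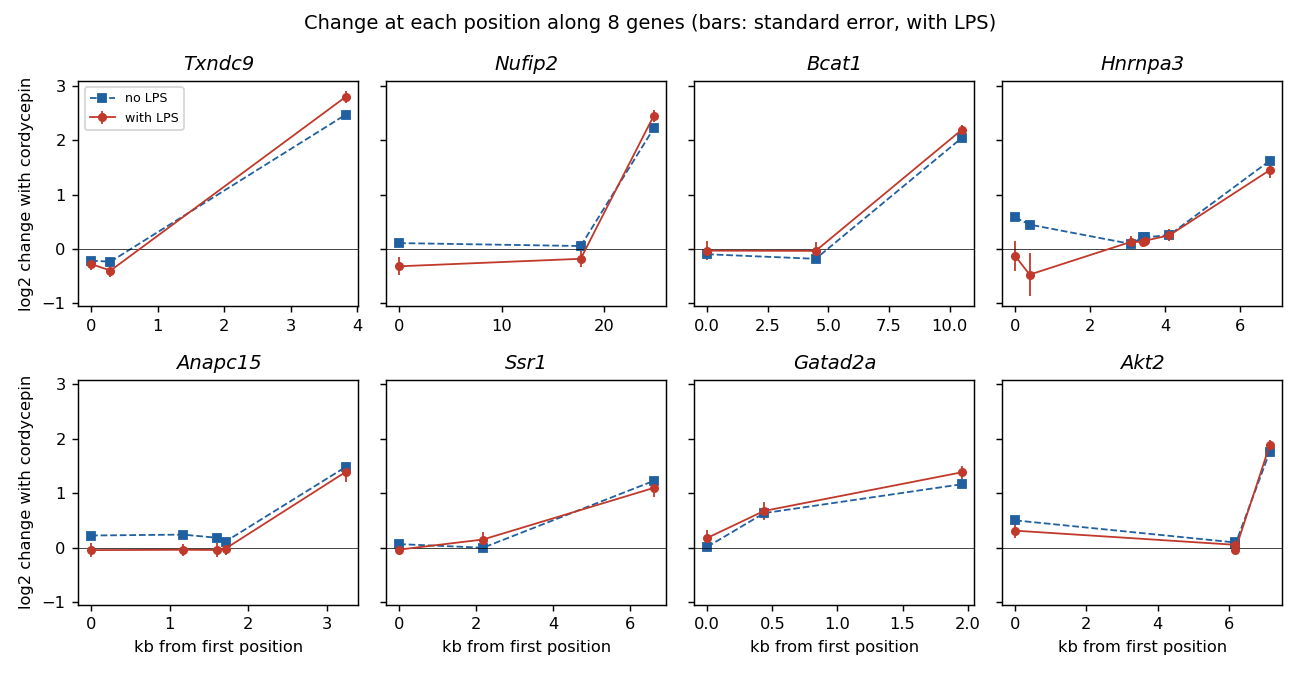
Log2 change with cordycepin (vertical axis) at each position along 8 members, against the distance in kb from the first position, with LPS (red circles, bars are standard errors from limma) and without LPS (blue squares). In Txndc9, Nufip2, Bcat1 and Anapc15 the positions before the last lie between -0.40 and 0.24 log2 and the last between 1.39 and 2.79.

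The differences with LPS and without LPS came from separate arrays, which shared culture days and slides. The downstream end gained in 75 members in both, which is 67.0% of the 112 genes with LPS and 92.6% of the 81 without. Another 37 passed with LPS but not without, and in all 37 the difference without LPS was also below 0, with medians of -1.16 with LPS and -0.76 without. For the upstream end, 3 genes were shared, 7 passed with LPS only and 2 without LPS only. Across all members the differences correlated with a Pearson r of 0.86, with genes not being independent.

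**Figure D5:**
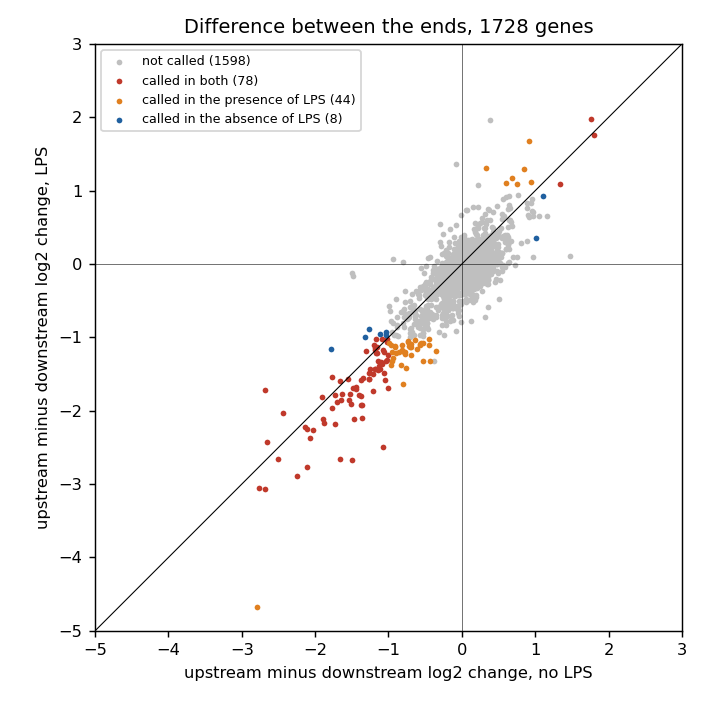
Difference between the ends (upstream less downstream log2 change) without LPS (horizontal axis) and with LPS (vertical axis) for each of the 1728 members. The 78 genes that passed in both comparisons (red) lie along the diagonal, and the 44 that passed with LPS (orange) and the 8 that passed without LPS (blue) lie on the same side of 0 in both.

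Whether LPS altered the effect of cordycepin was tested by the interaction of the factors. No member passed (0 of 1728, and 0% of all 2600 genes, by limma), the smallest adjusted p was 0.0769, and 96 members had an unadjusted p under 0.05. Of the 37 genes that passed with LPS only, 0 had an interaction with an adjusted p under 0.05. Rbm33 (interaction -1.18) passed with the culture day or the slide as a block, the former with a limma adjusted p of 0.00698.

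LPS alone shifted the ends of fewer genes. In LPS+DMSO against DMSO the downstream end gained in 10 members and the upstream end in 5, while the shares over all 2600 genes were 0.423% and 0.269%. With no minimum fold the balance turned, with 19 gains of the downstream end and 43 of the upstream end, and the median difference over all members was 0.08 log2, with 562 of 1728 below 0. This comparison shares its LPS+DMSO and DMSO arrays with the comparisons above. Cflar, an inhibitor of death receptor signalling, had a downstream signal of 9.77, 10.19, 9.72 and 9.55 log2 in DMSO and 11.98, 12.03, 11.93 and 12.00 in LPS+DMSO, with no overlap, and an upstream signal of 9.96 to 10.37 and 9.55 to 10.10. The difference was -2.46 (limma adjusted p = 9.07e-06). Elavl1, an RNA-binding protein that stabilises AU-rich messengers, had a downstream signal of 7.87 to 8.22 in DMSO and 9.20 to 9.75 in LPS+DMSO (difference -1.26; limma adjusted p = 2.81e-05). For Cdkn1a, an inhibitor of cyclin-dependent kinases, the difference was -1.25. Others were Echdc3 (-1.70), Ccrn4l (-1.15), Sqstm1, Arl2bp, Nsf and Rreb1. The upstream end gained in Homer1 (1.06), a synaptic scaffold known for a short isoform made by alternative polyadenylation, and in Arl5c, Iqcc, Chpf2 and Chchd5, but none of these 5 passed on the authors' values, where the upstream end gained in 0 members and the downstream end in 6. Cflar, Cdkn1a and the genes given here without a value were named for this comparison after their values were seen.

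Sqstm1, the selective autophagy receptor, was the only gene whose downstream end gained both with LPS alone and with cordycepin added to LPS. Its ratio of upstream to downstream signal was 6.26, 6.61, 6.29 and 6.13 log2 in DMSO, 4.94, 5.41, 5.10 and 4.95 in LPS+DMSO, 5.45, 5.42, 5.00 and 5.11 in cordycepin and 3.42, 3.22, 1.99 and 1.77 in LPS+cordycepin. The arrays of the last group lay below all others. The difference with cordycepin was -2.5 (limma adjusted p = 1.57e-05) with LPS and -1.08 (limma adjusted p = 0.0269) without, and the latter did not pass on the authors' values (-0.86), with normexp background correction (-0.79) or without replicate 2 or replicate 3.

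Cleavage and polyadenylation factors had 5 members among 26 genes listed. Their median differences were -0.43 with LPS and -0.58 without, against -0.06 and 0.04 over all members. Over all 2600 genes the downstream end gained in 4.65% and 3.5%, and among these 5 it gained in 1 gene, in both comparisons. That gene was Cstf1, a subunit of the cleavage stimulation factor, with ratios of 5.89, 5.19, 5.84 and 4.62 log2 in LPS+DMSO and 4.33, 4.48, 3.40 and 3.60 in LPS+cordycepin. The groups did not overlap. The ends carry different accessions, joined by the array's name. The difference was -1.44 ± 0.33 (SE, n = 4; limma adjusted p = 0.00585) with LPS and -1.11 (limma adjusted p = 0.0397) without. Without replicate 3, the first was -1.10 and did not pass (limma adjusted p = 0.105), and the second was lost without any one of the 4 replicates. Its partner Cstf2 differed by -0.87 with LPS and -0.59 without (limma adjusted p = 0.00100 and 0.0228), under the 2-fold minimum, and Cstf3 by -0.58 without LPS (limma adjusted p = 0.0236). Fip1l1 and Wdr33, both of the complex that recognises the polyadenylation signal, were the other members. In each comparison 4 of the 5 members had a difference below 0, and the highest was 0.32 with LPS and 0.23 without.

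Of 21 genes known for alternative polyadenylation, 12 were members and none passed (0 of 12 in both comparisons), a count read against the 4.65% and 3.5% of all 2600 genes whose downstream end gained. Their differences ran from -0.78 to 0.08 with LPS, with a median of -0.31 and 10 of 12 below 0, and without LPS the median was -0.08 with 8 below 0, while of all 1728 members 1076 and 727 were below 0. With no minimum fold, those at an adjusted p under 0.05 with LPS included Homer1 (-0.78), Elavl1 (-0.75) and Vma21 (-0.63), an assembly factor of the vacuolar ATPase, with limma adjusted p of 5.50e-04, 5.11e-04 and 0.00212. Of 42 inflammatory and NF-kB genes 4 were members (Cd44, Nfkb1, Nfkbib and Sqstm1). Sqstm1 was the 1 that passed, a count to be read against the same shares of all 2600 genes. Of 11 housekeeping genes only Gapdh was a member, and it did not pass.

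The array sequences, 60 bases each, were searched for the letters of the hexamer AATAAA, for those of its variant ATTAAA, for ATTTA as the core of AU-rich elements, and for TTTATT as the reverse complement of the hexamer, which can overlap the AU-rich core. The hexamer was present in 71 upstream (4.11%) and 335 downstream (19.4%) sequences of the members and in 2085 of all 13384 detected positions (15.6%), and TTTATT in 89 downstream sequences. Among the 57 genes in an uninterrupted stretch whose downstream end gained with LPS, 8 upstream sequences (14%) held AATAAA, and among the 334 that did not pass it was 17 (5.09%). Downstream it was 11 (19.3%) and 52 (15.6%). ATTAAA was in 2 and 14 of the upstream sequences. Their median GC content was 36.7% in the 57 and 41.7% in the 334, and the part of base composition was not tested. Over all 112 genes whose downstream end gained with LPS, 10 upstream sequences (8.93%) held AATAAA. Caprin1, one of the 57 genes, and Cstf1, whose ends carry different accessions and which is not among the 57, held AATAAA in the upstream sequence, as shown above. ATTTA was present in 112 upstream (6.48%) and 171 downstream (9.90%) sequences and in 8.51% of all positions. The median GC content was 45.0% upstream and 38.3% downstream. A match is a description of the letters and not evidence of a used site.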

How the data were processed

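Conditions and replicate numbers came from the labels, and doses from the study's methods. The scanner files hold, per the file headers, the intensity of each spot obtained by the authors with Agilent Feature Extraction (version 10.10.1.1 in the submitters' processing notes), both raw and after removal of background and a spatial trend (the processed intensity), with no normalization between arrays. The flag of a spot as well above background, and the transcript accession, the mm9 position and the 60 bases of each probe, were also as deposited. A further table, deposited by the authors with log2 values made comparable between arrays by a method not given in the sources used here, served as an alternative. For the RNA, the labels name a column kit and the study's methods TRIzol.

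Processed intensity was log2-transformed, outlier spots (108 to 237 per array) were left out, spots of a probe were averaged, and arrays were scaled to a common 75th percentile of the 18138 probes (of 55681) detected on every array. Of the members, 9 lacked a value on some array and were fitted without it. Symbols were read from the RefSeq table by accession for 1710 members, of which 89 had another symbol than the array's name, and 1 joined accessions of different symbols. Upstream less downstream log2 signal was fitted for all 2600 genes with several positions, in all 16 arrays with the 4 condition means, with limma 3.58.1 in R 4.3.3 and Benjamini-Hochberg adjustment over all 2600. The change at each position came from a fit of the 21591 probes detected on each of the 4 arrays in 1 condition or more. Values with SE are from these fits. On simulated data for LPS+cordycepin against LPS+DMSO with 2600 pairs, 99 of 100 changes of 1.5 log2 and 100 of 100 of 2.5 log2 were recovered, with 0 false calls. The simulated noise was independent between arrays, with no slide effect and no outlying array. The figures therefore do not cover such effects or changes near the 2-fold minimum. Plots were drawn with matplotlib 3.10.9 and files read with pandas 2.3.3 and numpy 2.4.6 under Python 3.11.15.

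Replicate numbers mark a shared culture day in the labels and so pair the samples. The mean correlation of residuals was 0.097 for the same number (range -0.24 to 0.40, 12 of 24 pairs over 0.1), 0.13 for another number on that slide and -0.11 between slides. The main fit had no block. The number of arrays limits the precision.

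The named genes are the 8 members with the largest differences in each direction with LPS and the 5 without LPS, with the same sign on all 4 days, members that passed in the interaction, the members of the gene lists, the 3 longest distances and the nearest pairs on both sides of 1 kb. Values of some of these genes are not reported here. The members, lists and tests were chosen with earlier results of these data known. Alternatives were normexp background correction (offset 50), quantile normalization, median scaling, the authors' values, other filters on signal, distance and accession, blocks for replicate and slide, fits within a slide or of only the groups compared, an intensity trend with robust estimation, other thresholds, and leaving out each replicate or array.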

Additional observations from a re-analysis of the deposited data

Results flagged for a closer look

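In 200 groups of 4 arrays or days, 16 had a lowest or highest value far from the other 3 by Dixon's test, where chance alone gives about 1 in 20. For the ratio of upstream to downstream log2 signal, Btg1 had 3 such values. They were -4.5988 in LPS+cordycepin replicate 3 (others 3.12 to 3.76), 2.3423 in cordycepin replicate 3 (others 3.29 to 3.39) and 6.2854 in DMSO replicate 2 (others 5.72 to 5.75). The first is the array with the low upstream signal given above, without which the difference in Btg1 was -2.67.

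In the replicate 2 arrays, ratios also stood apart in LPS+cordycepin for Caprin1 (4.4086, others 4.79 to 4.86) and Eif4e (1.7434, others 2.69 to 2.79), in cordycepin for Bcat1 (-2.2325, others -1.65 to -1.62), in DMSO for Cstf3 (-2.6971, others -2.07 to -1.99) and in LPS+DMSO for Gramd1b (-0.5415, others -0.45 to -0.44). Without its array Caprin1 fell under the 2-fold minimum with LPS. Eif4e, the cap-binding translation factor, was chosen after its values were seen. The difference between its ends with LPS was -1.06 log2 with all arrays and -0.82, under the 2-fold minimum, without that array. In the other replicates, values stood apart for 1700047I17Rik2 (-9.3753, LPS+DMSO replicate 4), Gsk3b (1.176, LPS+DMSO replicate 4), Eif2s1 (1.8019, cordycepin replicate 3), Rbm3 (4.7999, cordycepin replicate 1) and Vma21 (0.6552, LPS+cordycepin replicate 4).

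The median difference between the ends on a culture day stood apart in replicate 2 with LPS, at 0.1051 log2 over all members (others -0.17 to -0.13) and at -0.1785 over those in an uninterrupted stretch (others -0.29 to -0.28). Among genes with positions closer than 1 kb it was 0.0763 in replicate 3 without LPS (others -0.01 to 0.01).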

How the results depend on the processing

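Members that passed numbered 122 with LPS and 86 without, and 114 to 132 and 74 to 96 with a replicate or array left out. With the replicate block they were 122 and 85. Detection in only 1 condition gave 187 and 141, both positions above the median signal 18 and 14, at least 5 kb of distance 36 and 26, the same accession at both ends 77 and 55, and no minimum fold 302 and 255, the last with 50 and 65 gains of the upstream end. With normexp background correction 56 passed without LPS. In the interaction, 1 passed with the replicate block, 1 with the slide block, 1 within slide 2, and 0 to 1 with an array left out. With LPS alone (15, or 11 to 15 with a replicate or array left out), 8 passed with normexp, 6 on the authors' values, 37 with detection in 1 condition, 2 with both positions bright, 7 at 5 kb or more, 6 with NM_ accessions only, 2 with the same accession, 1 within slide 1 and 62 with no minimum fold, of which 43 were gains of the upstream end. Downstream positions that passed with LPS (92, or 88 to 98) were 387 with no minimum fold, and without LPS (73, or 71 to 76) they were 47 with normexp and 340 with no minimum fold. Upstream positions with LPS (28, or 24 to 34) were 16 with normexp and 203 with no minimum fold, and without LPS (21, or 16 to 24) they were 10 with normexp, 13 on the authors' values and 163 with no minimum fold. For normexp, the authors' values and the blocks, the cause was not tested, while no minimum fold only relaxes the threshold, and the other settings count fewer or more genes, or use fewer arrays, by construction.

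Of 3190 alternative values for the named genes, 3031 kept direction and side of the threshold, 125 no longer passed, 33 newly passed, and 1 reversed, which was Gabarap with LPS on NM_ accessions only, at -0.0097. Of 69 named results that passed, 22 failed at least once. Medians over the members moved by less than the spread between days under every alternative, and left-out arrays put them at -0.13 to -0.02 with LPS and 0.02 to 0.08 without.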
